A study of Mus musculus with 9 samples.

Results

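Cholesterol synthesis is described here through 28 genes, chosen by name from the 21989 genes of the deposited table. They comprise 19 enzymes that lead from acetoacetyl-CoA to cholesterol, the gene of the transcription factor SREBP2 with 3 genes that control it, and 5 genes of sterol transport, thiolysis, receptor breakdown and esterification. All 28 were in the table, and all 28 reached at least 1 FPKM (fragments scaled by gene length and by library total) in at least 3 libraries, the condition for being tested.

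The study profiled aortic arch of mice by RNA sequencing, 9 libraries in 3 groups of 3, and concerns the plant Ziziphora clinopodioides Lam. in atherosclerosis. The control group was C57BL/6J mice kept on standard diet. Model libraries came from ApoE-/- mice, which lack the apolipoprotein that clears remnant lipoproteins, on high-fat diet for 15 weeks. High dose libraries came from ApoE-/- mice on the same diet that received ZCL at 5.12 g/kg/day by gavage for 15 weeks. Genotype and diet thus differed together between control and both other groups, and ages were not among the labels read here. Groups on atorvastatin, a statin, and on lower doses of ZCL were not analysed here. All 9 libraries carry the same batch label. Whether each library is its own animal or a pool is not stated, and p-values therefore describe the scatter among these libraries, part of which may be technical.

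Cells make cholesterol from acetyl-CoA through mevalonate, isoprenoid diphosphates, squalene and lanosterol. When the endoplasmic reticulum is short of sterol, SCAP escorts the precursor of SREBP2 to the Golgi, where proteases release a transcription factor that induces most enzymes of the pathway. INSIG proteins hold SCAP back when sterol is plentiful, and cells of plaque that take up lipoprotein cholesterol store the excess as esters made by SOAT1.

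Apoe checked the genotype labels, at 339.9 to 1006 FPKM in control, 18.9 to 33.4 in model and 25.4 to 93.7 in high dose libraries. Model and high dose share the ApoE-/- genotype and overlap, so Apoe cannot check which of these is which. Depth, read from the steps between low FPKM values, lay between 56.3% and 100% of that of model 1. Smooth muscle and endothelial markers, which define the labelled tissue, were present throughout, with 6 or 7 of 7 and 5 of 5 genes at 1 FPKM or more in each library. The libraries also held other tissue in unequal amounts. The heart muscle list of 12 genes summed to 8452 to 30949 FPKM in control 1, control 2, high dose 2 and high dose 3 and to 33.1 to 97.7 in the other 5 libraries. High dose 1 had the lowest smooth muscle sum, 459 FPKM against 1187 to 4469 elsewhere, and the highest sum of neuron and chromaffin cell markers, 3849 against at most 1018. In such bulk tissue, fewer cells of a type and less RNA per cell cannot be told apart.

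Promoters of 4 members are shown, taken from those whose window holds no exon annotated in GENCODE. Hmgcs1 opens the pathway and holds the sterol regulatory element, Mvd and Ebp are enzymes with higher means in high dose than in model, and Insig2 was lower in every model library than in every control library at the deposited FPKM. Insig2 has 3 RefSeq start sites, of which the printed window alone holds NF-Y boxes. The deposited values are per gene and do not show which start site was in use in these libraries. Each line gives the 250 bases before a RefSeq start site, 5′ to 3′ on the gene's strand, from GRCm38.p6. Capitals mark the NF-Y box CCAAT on either strand (ATTGG when reversed) and the sterol regulatory element TCACNCCAC.
Hmgcs1, chr13:119690101-119690350, plus strand: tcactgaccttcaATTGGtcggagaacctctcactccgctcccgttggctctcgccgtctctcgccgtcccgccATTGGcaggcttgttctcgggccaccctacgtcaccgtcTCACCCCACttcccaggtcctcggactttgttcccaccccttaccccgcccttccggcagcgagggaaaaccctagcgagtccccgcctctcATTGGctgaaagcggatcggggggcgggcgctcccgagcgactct
Mvd, chr8:122443423-122443672, minus strand: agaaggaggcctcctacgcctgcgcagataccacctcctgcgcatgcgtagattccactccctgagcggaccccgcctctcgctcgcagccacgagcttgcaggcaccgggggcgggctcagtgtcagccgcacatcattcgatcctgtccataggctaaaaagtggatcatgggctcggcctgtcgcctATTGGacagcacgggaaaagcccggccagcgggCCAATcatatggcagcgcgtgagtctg
Ebp, chrX:8193513-8193762, minus strand: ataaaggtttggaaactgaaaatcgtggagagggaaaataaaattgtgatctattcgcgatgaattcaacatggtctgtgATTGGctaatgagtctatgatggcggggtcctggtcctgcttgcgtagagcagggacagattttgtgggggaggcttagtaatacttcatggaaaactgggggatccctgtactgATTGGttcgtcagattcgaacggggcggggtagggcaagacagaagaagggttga
Insig2, chr1:121332590-121332839, minus strand: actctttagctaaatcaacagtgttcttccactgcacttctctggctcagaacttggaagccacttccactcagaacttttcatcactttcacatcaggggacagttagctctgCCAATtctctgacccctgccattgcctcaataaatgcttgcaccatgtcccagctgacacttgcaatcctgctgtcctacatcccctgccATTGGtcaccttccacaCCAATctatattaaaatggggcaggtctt

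NF-Y is a factor that SREBPs are known to act with at sterol-regulated promoters. RefSeq promoters matched 23 of the 28 members, and the unmatched ones were Fdps, Fdft1, Sqle, Stard4 and Acat1. An NF-Y box lay in this window in 21 of 23 members (91.3%), all but Scap and Acat2, against 37.5% of 27025 genes of the promoter table and 39.5% of its 9852 genes that were tested here. The GC box GGGCGG was found in 20 of 23 members (87.0%) and in 35.4% of the genes of the table, or 63.0% of those tested. The E-box CACGTG was present in 5 of 23 members (21.7%) against 6.86% of the table, or 9.86% of those tested. The sterol regulatory element as spelt above occurred in 1 member, Hmgcs1, and in 1.22% of genes. Both strands were searched, and matches are a description of letters in this window. A gene with several start sites was counted once, as holding a motif if any of its windows did. Insig2, Pmvk and Dhcr7 thus count for the NF-Y box although not all their windows hold it. No motif holds another within its letters, though neighbouring matches can share end bases.

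**Figure D1:**
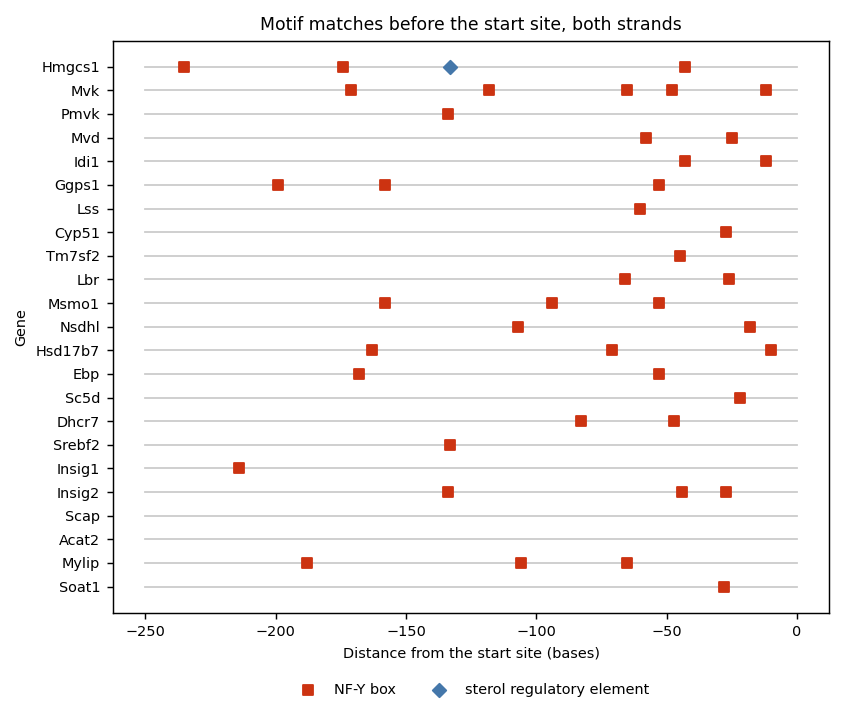
Motif matches in the 250 bases before the start site of the 23 members with a promoter entry; the x axis is the distance from the start site in bases, squares are NF-Y boxes and the diamond is the sterol regulatory element. Scap and Acat2 hold no NF-Y box in the window, and Mvk holds the most, 5.

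Before any comparison of groups, 1 library set the range of most members. High dose 1 was the highest of the 9 libraries in 17 of 28 members, where it was the highest in 16.9% of the 12895 genes tested. Of the 19 synthesis enzymes it led 13. In the median enzyme it stood 2.86 times above the mean of high dose 2 and 3, while in the median gene tested this ratio was 1.04. High dose 1 was also the library richest in Th and Dbh, enzymes of catecholamine synthesis, and poorest in smooth muscle markers. The part of these cells in the enzyme levels was not tested.

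At the low end, control 1 was the lowest control library in 15 of the 19 enzymes, and model 1 the lowest model library in 15 of 19. Over all genes tested these shares were 33.4% and 42.6%. Spread within groups was wider for the members than for genes at large. The median SD of log2(FPKM + 1) was 0.55 in control, 0.37 in model and 0.85 in high dose libraries for the members, against 0.39, 0.23 and 0.42 for all genes tested.

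**Figure D2:**
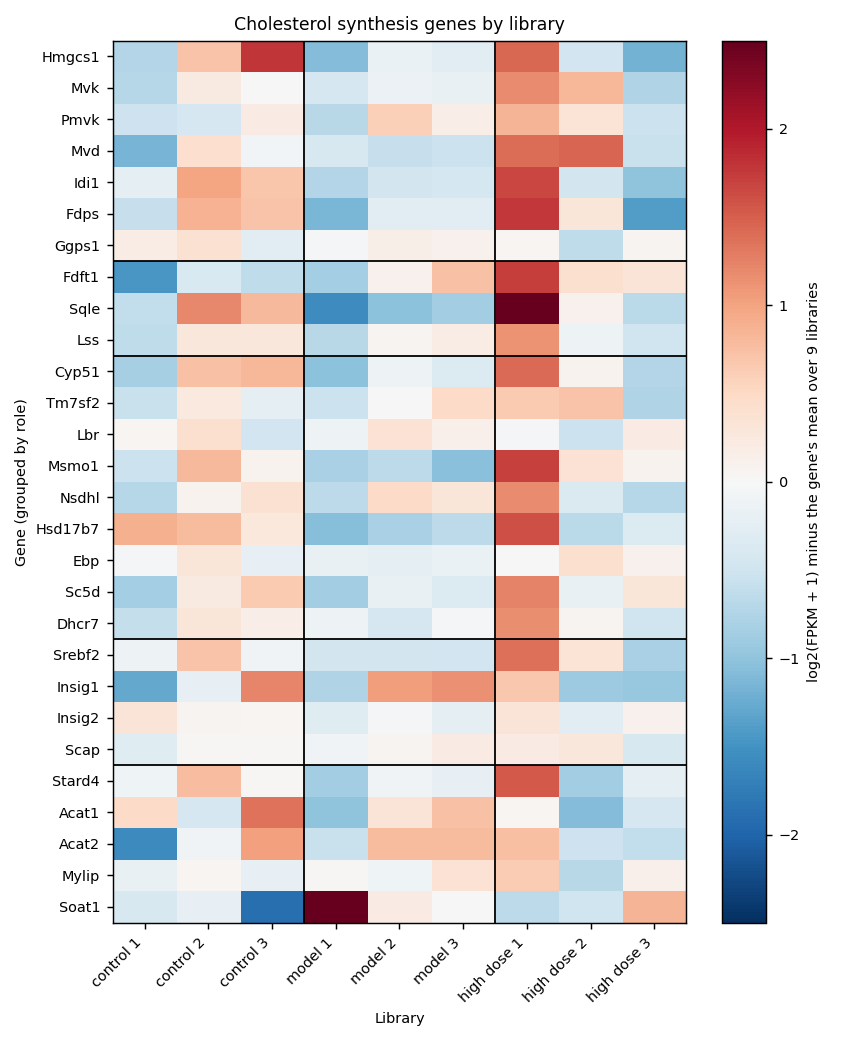
Heat map of the 28 genes (rows, grouped by role from mevalonate synthesis at the top to transport and esterification at the bottom) in the 9 libraries (columns); colour is log2(FPKM + 1) minus the gene's mean over the 9 libraries. High dose 1 is the highest library in 17 of the 28 rows, and Soat1 in the bottom row is highest in model 1.

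The mevalonate enzymes differed widely in level. Hmgcs1, which condenses acetoacetyl-CoA with acetyl-CoA, had the highest mean level of them, at 23.2, 64.7 and 137.8 FPKM in control 1, 2 and 3. Model libraries read 17.8, 34.6 and 31.8 FPKM and high dose libraries 106.6, 27.8 and 16.5. Control 3 and high dose 1 were far above the rest, and all groups overlapped. Fdps, which makes farnesyl diphosphate, read 16.4, 45.9 and 40.9 FPKM in control, 10.7, 20.4 and 20.5 in model and 86.6, 30.6 and 8.75 in high dose. In the annotation 26.7% of its exonic bases are shared with the same-strand gene Gm43738, so its reads can be split between them.

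Idi1 (chromosome 13, 8885501 to 8892451, plus strand, GRCm38) encodes the isomerase that makes dimethylallyl diphosphate. It had the lowest mean level of the members, at 1.56, 5.07 and 3.95 FPKM in control, 0.842, 1.21 and 1.25 in model and 8.66, 1.20 and 0.516 in high dose. All 3 model libraries lay below all 3 control libraries, and the high dose group spanned the full range. Its paralogue Idi2 was listed at 0 in 8 of 9 libraries. Mvd, the decarboxylase that makes isopentenyl diphosphate, stood at 2.34, 8.98 and 6.11 FPKM in control, 4.65, 3.99 and 4.14 in model and 18.6, 19.4 and 4.04 in high dose. High dose 2 and high dose 1 were both far above the other libraries. The kinases Mvk and Pmvk ranged from 4.73 to 21.1 and from 11.0 to 34.1 FPKM, both highest in high dose 1. Ggps1, which makes geranylgeranyl diphosphate for protein prenylation rather than sterol, varied the least of these enzymes, from 4.93 to 11.1 FPKM, and was highest in control 2.

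Sqle (chromosome 15, 59315077 to 59331192, plus strand) encodes squalene epoxidase, a rate-controlling enzyme after squalene. Levels were 3.53, 15.1 and 11.1 FPKM in control, 1.34, 2.43 and 2.81 in model, and 42.7, 6.53 and 3.36 in high dose libraries. Model libraries were the 3 lowest of the 9, and high dose 1 exceeded the next library 2.82 times. The gene spanned a 31.8-fold range, the widest of the enzymes. Lss, which cyclises oxidosqualene to lanosterol, ran from 1.82 FPKM in model 1 to 9.01 in high dose 1.

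Fdft1 (chromosome 14, 63145150 to 63179578, minus strand) encodes squalene synthase, the first step committed to sterols. Its values were 5.11, 11.9 and 9.79 FPKM in control, 8.24, 16.9 and 26.9 in model and 54.7, 21.1 and 20.0 in high dose. All high dose libraries were above all control libraries, and model overlapped both. Its exons share 18.3% of their bases with Ctsb on the opposite strand, the labels do not state a strand setting, and without it reads of the pair cannot be told apart. Ctsb, the cathepsin B gene, stood at 154 to 266.8 FPKM in control, 407.8 to 1523 in model and 235 to 652 in high dose. Its part in the Fdft1 values was not tested.

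Among the enzymes after lanosterol, Msmo1 (chromosome 8, 64718139 to 64733792, minus strand), the oxidase that starts removal of the methyl groups at carbon 4, stood at 9.66, 26.4 and 15.5 FPKM in control. It read 7.92, 8.86 and 6.499 FPKM in model and 49.6, 18.8 and 15.5 in high dose. Every model library lay below every library of the other groups. Hsd17b7 (chromosome 1, 169949535 to 169969241, minus strand), the ketoreductase of the same demethylation, read 4.92, 4.49 and 2.84 FPKM in control, 0.534, 0.818 and 1.01 in model and 8.72, 0.988 and 1.52 in high dose. Its control and model groups were clearly apart, and high dose 2 and 3 sat near the model level while high dose 1 was the highest of all.

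Cyp51, the lanosterol demethylase, read 3.39, 11.9 and 12.8 FPKM in control, 2.79, 6.12 and 5.11 in model and 19.9, 7.23 and 3.66 in high dose. Sc5d, the sterol desaturase, ranged from 6.62 FPKM in model 1 to 31.9 in high dose 1, and Dhcr7, the last reductase of 1 branch, from 3.59 in control 1 to 14.5 in high dose 1. Nsdhl, the decarboxylating partner of Msmo1, ran from 8.31 to 33.6 FPKM with model 2 next below high dose 1. Ebp, the isomerase of the sterol ring double bond, varied only 1.57-fold. Its values were 17.8, 22.4 and 15.5 FPKM in control, 15.7, 15.3 and 16.0 in model and 17.9, 24.1 and 19.7 in high dose.

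Tm7sf2 and Lbr encode proteins that can reduce the same sterol double bond, and LBR also anchors heterochromatin at the nuclear envelope. They did not follow each other. Tm7sf2 was highest in high dose 2 and high dose 1, at 11.8 and 11.4 FPKM, and Lbr was highest in control 2, at 17.5, and lowest in high dose 2, at 8.59. Of the exonic bases of Tm7sf2, 12.1% are shared with Vps51.

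Srebf2 (chromosome 15, 82147181 to 82205379, plus strand), the gene of SREBP2, stood at 11.0, 20.7 and 11.5 FPKM in control. The model libraries were nearly identical, at 8.58, 8.56 and 8.42 FPKM, and the high dose libraries were spread over 33.1, 15.7 and 6.55. Model lay below control without overlap. The order of libraries in Srebf2 began as in Sqle, with high dose 1 and control 2, and then differed, with high dose 2 before control 3. SREBP2 is known to induce its own gene, and the part of this in the Srebf2 values was not tested. Scap, the escort of SREBP2, varied 1.67-fold, from 9.15 to 15.3 FPKM.

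The retention factors Insig1 and Insig2 differed in pattern. Insig1, itself a target of SREBPs, read 9.71, 21.5 and 59.5 FPKM in control, 14.3, 52.7 and 56.2 in model and 40.5, 12.7 and 12.5 in high dose. It was highest in control 3, model 3, model 2 and high dose 1, so that each group held high and low libraries. Insig2 (chromosome 1, 121304353 to 121332589, minus strand) stayed between 10.6 and 16.9 FPKM. Its control values were 16.9, 14.0 and 13.8, its model values 10.6, 12.9 and 11.1, and its high dose values 16.9, 11.0 and 14.5.

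Soat1 (chromosome 1, 156424525 to 156474331, minus strand), which esterifies cholesterol for storage, had the widest range of all members, 57.9-fold. Control libraries read 3.44, 4.11 and 0.592 FPKM, with 34.3, 5.81 and 4.96 in model and 2.74, 3.19 and 9.56 in high dose. Each model library exceeded each control library, and model 1 held most of the difference. Stard4, a sterol carrier induced by SREBP2, ran from 1.63 FPKM in model 1 and high dose 2 to 12.9 in high dose 1. Mylip, the ubiquitin ligase that marks lipoprotein receptors for breakdown and is induced by liver X receptors, ranged from 20.5 to 53.3 FPKM.

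The thiolases make acetoacetyl-CoA, Acat1 in mitochondria and Acat2 in the cytosol. Acat1 was the most abundant member, at 110.8, 58.8 and 204 FPKM in control, 38.9, 99.5 and 132 in model and 82.1, 36.9 and 58.6 in high dose. Acat2 read 10.3, 30.8 and 67.6 FPKM in control, 22.1, 57.9 and 57.6 in model and 56.2, 22.6 and 21.1 in high dose. Its near copy Acat3 was listed at 0.832 to 4.56 FPKM, and reads may be split between the copies.

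**Figure D3:**
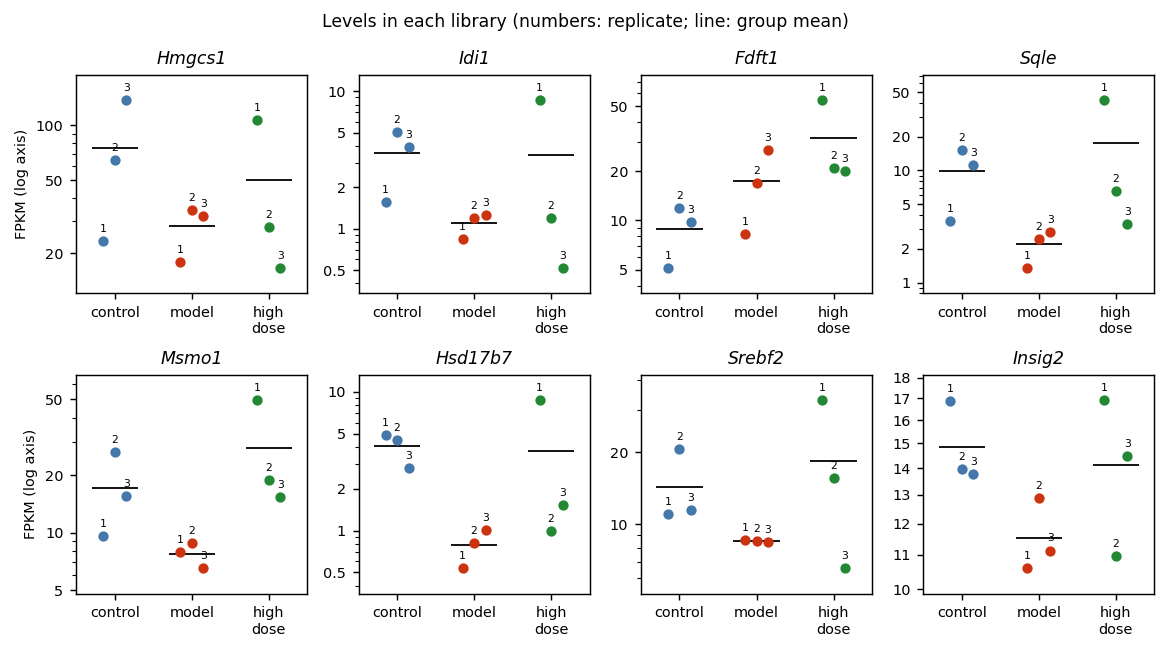
FPKM of 8 members in each library on log axes; points are libraries numbered by replicate, and lines are group means of 3 libraries. The 3 model libraries lie below the 3 control libraries in Idi1, Sqle, Msmo1, Hsd17b7, Srebf2 and Insig2, and high dose 1 is the highest high dose library in all 8 panels.

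Model against control sets ApoE-/- genotype plus high-fat diet beside wild-type mice on standard diet. Sqle, Hsd17b7, Msmo1, Idi1, Srebf2 and Insig2 were lower in every model library than in every control library, while Soat1 was higher in each. After median-ratio rescaling of the libraries Insig2 overlapped, and Ebp and Stard4 were lower without overlap, 7 members in all against 10% of genes. Hsd17b7 averaged 4.08 ± 1.10 FPKM (SD, n = 3) over control libraries and 0.789 ± 0.241 over model libraries, and Sqle averaged 9.93 ± 5.89 and 2.19 ± 0.761. These were 6 of 28 members (21.4%) below without overlap, against 9.06% of all genes tested, and 1 of 28 (3.57%) above against 6.91%. By sign alone, 18 of 28 members (64.3%) were lower, against 51.3% of genes, and 10 were higher, against 48.7%. The median log2 difference was -0.19 over the members and -0.01 over all genes. Its sign turned without control 2, to 0.022 with 15 of 28 members higher, and with array weights, to 0.075 with 16 higher.

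No member passed in limma at an adjusted p under 0.05 (0 of 28, where 0% of 12895 genes were called), and 2 of 28 members had an unadjusted p under 0.05, against 6.37% of genes. The log2 difference was -1.62 ± 0.808 (SE) for Sqle, with a limma adjusted p = 0.764. For Hsd17b7 it was -1.49 ± 0.54, with the smallest adjusted p of the members, 0.713. With libraries weighted by their scatter (array weights), 1 of 28 members passed, where 684 of 12895 genes were called. That member was Hsd17b7, at -1.57 and a limma adjusted p = 0.0434. The weights ran from 0.379 for control 3 to 5.92 for model 2, and control 1, the library richest in heart muscle RNA, weighed most of the controls, at 2.00. Idi1, Msmo1, Srebf2 and Insig2 had log2 differences of -1.02 ± 0.641, -0.96 ± 0.466, -0.64 ± 0.491 and -0.34 ± 0.21, and adjusted p from 0.761 to 0.845. Above 0 lay Soat1 at 1.77 ± 0.758, Fdft1 at 0.81 ± 0.517, Acat2 at 0.57 ± 0.686 and Insig1 at 0.56 ± 0.758 (SE), with adjusted p = 0.758, 0.796, 0.915 and 0.929. Without control 1 the signs of Acat2 and Insig1 turned, to -0.12 and -0.032, and Fdft1 was 0.50. Soat1 was 0.95 without model 1, and Fdft1 ran from 0.44 without model 3 to 1.24 without model 1. Msmo1 and Srebf2 were -0.61 and -0.36 without control 2. Array weights gave -0.97 for Sqle, -0.61 for Idi1, -0.62 for Msmo1, 0.86 for Soat1 and 1.35 for Fdft1.

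By role, 6 of 7 mevalonate enzymes, 2 of 3 enzymes from squalene to lanosterol and 6 of 9 enzymes after lanosterol had lower means on the log2 scale in model, and the role medians were -0.24, -0.13 and -0.22. Fdft1 was the exception among the squalene enzymes. The count of members below without overlap was 15 without control 1, the control library with the lowest enzyme levels and the most heart muscle RNA, where 12.9% of all genes were below. Leaving out a library cannot lower this count, and it was 6 to 8 with any other single library left out.

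**Figure D4:**
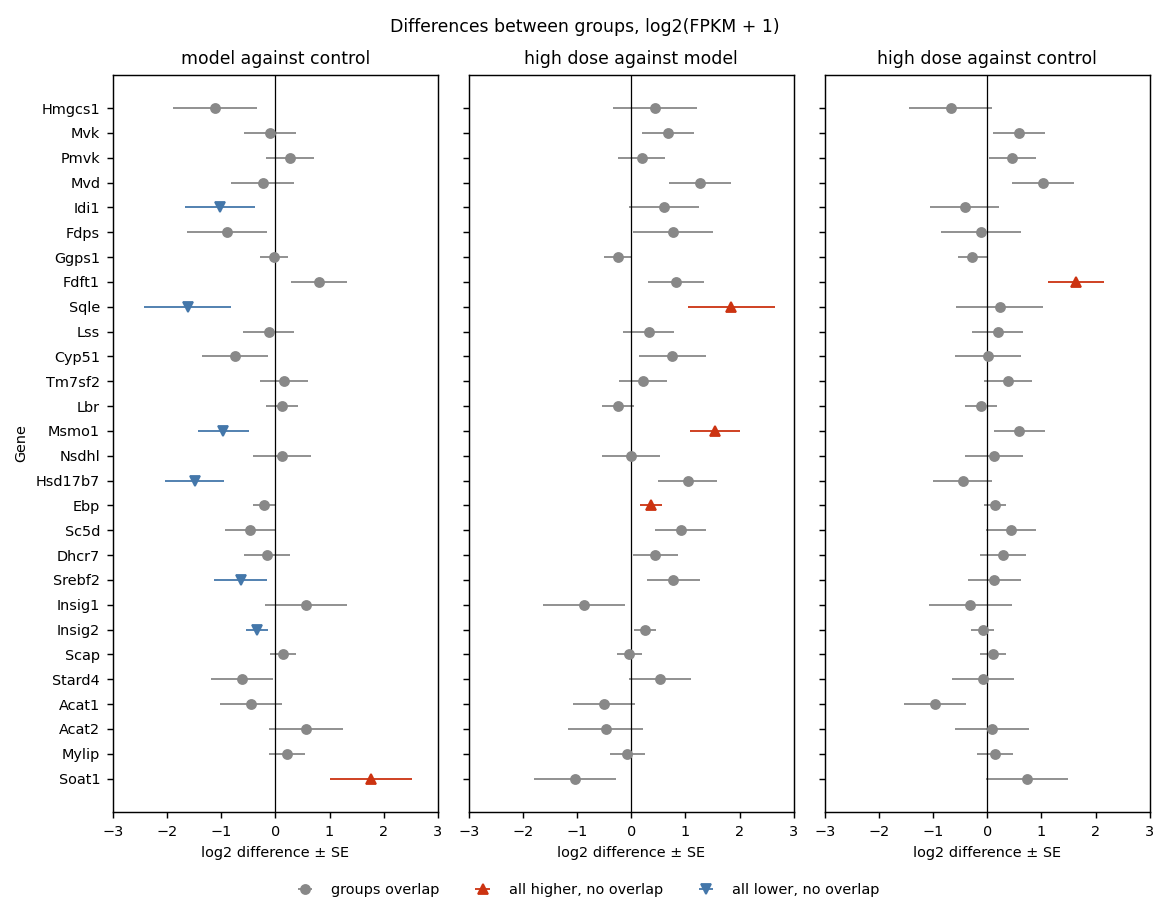
Fitted log2 differences (x axis, log2(FPKM + 1) scale) of the 28 members in the 3 comparisons, with the standard error of the fit as bars; triangles mark members whose libraries do not overlap between the 2 groups, 3 libraries in each. Model against control shows 6 downward and 1 upward triangle, and high dose against model shows 3 upward triangles.

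High dose against model compares ApoE-/- mice on high-fat diet with and without ZCL. These libraries also differed in heart muscle, skeletal muscle, airway and neuron markers. Msmo1, Sqle and Ebp were higher in every high dose library than in every model library, and no member was lower in each. Mean Msmo1 was 27.97 ± 18.8 FPKM (SD, n = 3) in high dose and 7.76 ± 1.19 in model, mean Sqle was 17.5 ± 21.9 and 2.19 ± 0.761, and mean Ebp was 20.5 ± 3.18 and 15.7 ± 0.363. These 3 of 28 (10.7%) compare with 11.7% of all genes tested that were above without overlap, so the share is near the background, and 0 members below compare with 10.9%. By sign, 20 of 28 members (71.4%) were higher, against 50.1% of genes, and 8 were lower, against 49.9%. The median log2 difference was 0.40 over the members and 0.0008 over all genes.

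No member passed (0 of 28 in limma, where 0% of genes were called), and 2 had an unadjusted p under 0.05, against 13.4% of genes. Msmo1 had a log2 difference of 1.55 ± 0.466 (SE) and a limma adjusted p = 0.276, the smallest of the members. Sqle stood at 1.85 ± 0.808, Mvd at 1.27 ± 0.574, Sc5d at 0.91 ± 0.467 and Ebp at 0.36 ± 0.202, with adjusted p from 0.371 to 0.434. Lower in high dose were Soat1 at -1.04 ± 0.758, Insig1 at -0.87 ± 0.758, Acat1 at -0.50 ± 0.573 and Ggps1 at -0.25 ± 0.262, with adjusted p from 0.539 to 0.704.

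Much of the sign count rested on high dose 1. Without that library 12 of 28 members were higher and 16 lower, where 47.4% and 52.6% of all genes were, and the member median was -0.07. Msmo1, Sqle and Ebp were still above all model libraries in high dose 2 and 3, at fitted log2 differences of 1.05, 0.87 and 0.45, where 19.5% of all genes were above, and Insig1 was below, where 20.1% were. Sc5d, Insig1 and Acat1 were then at 0.52, -1.41 and -0.77. Without high dose 3, the library of this group with the lowest Srebf2, 10 members were above without overlap, against 20.2% of genes; without high dose 2 they were 6, against 16.3%, and without model 3 they were 5, against 14.3%. Without model 1, Ggps1, Insig1, Acat1 and Acat2 were below without overlap, against 19.8% of genes, and Soat1, Insig1 and Acat1 stood at -0.21, -1.49 and -1.02. Insig1 and Acat1 were -0.54 and -0.15 without model 3, Ggps1 and Acat1 -0.017 and -0.21 without high dose 2, and Mvd 1.93 without high dose 3. Array weights gave -0.22 for Soat1, -1.53 for Insig1 and -0.88 for Acat1. The groups also differed in heart muscle RNA, at 53.3 to 97.7 FPKM in model and 33.1, 10956 and 18930 in high dose 1, 2 and 3. High dose 2 led in airway and skeletal muscle markers, at 22387 and 10205 FPKM, against at most 54.5 and 442 in model. The part of these tissues was not tested.

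High dose was also set against control, where genotype, diet and treatment differ together. Fdft1 was the sole member without overlap, with a mean of 31.9 ± 19.7 FPKM (SD, n = 3) in high dose and 8.93 ± 3.47 in control. That is 1 of 28 members (3.57%) above, against 3.66% of genes, and 0 below, against 5.02%. Its log2 difference was 1.64 ± 0.517 (SE), with a limma adjusted p = 0.832. No member passed (0 of 28, where 0% of genes were called), and 1 had an unadjusted p under 0.05, against 5.44% of genes.

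Mvd had a log2 difference of 1.03 ± 0.574 (SE), Msmo1 of 0.59 ± 0.466 and Mvk of 0.58 ± 0.48 in high dose against control. Acat1 stood at -0.96 ± 0.573, Hmgcs1 at -0.67 ± 0.768, Hsd17b7 at -0.45 ± 0.54 and Ggps1 at -0.28 ± 0.262. Their limma adjusted p ran from 0.888 to 0.925. All of these sizes depended on single libraries. Without high dose 1, Msmo1 was 0.096, Mvk 0.20, Hsd17b7 -1.16 and Hmgcs1 -1.43. Without high dose 2, Mvk was 0.38, Mvd 0.68, Hsd17b7 -0.014 and Ggps1 -0.044, and without high dose 3, Mvk was 1.17, Mvd 1.69, Msmo1 0.91, Hsd17b7 -0.18 and Hmgcs1 -0.12. Without control 1, Msmo1 was 0.26, Mvk 0.31, Mvd 0.59 and Hmgcs1 -1.33. Without control 2, Msmo1 was 0.94 and Ggps1 -0.13, and without control 3, Hmgcs1 was -0.075, Acat1 -0.51 and Ggps1 -0.46. Array weights gave -0.28 for Hmgcs1 and -0.79 for Hsd17b7. By sign 18 of 28 members were higher, against 50.2% of genes, and 10 were lower, against 49.8%; without high dose 1 the count higher was 10 of 28, against 46.2%. Without high dose 1, Idi1, Hsd17b7, Stard4 and Acat1 were below control without overlap, against 13.5% of genes. Without high dose 3, 6 members were above, namely Mvk, Pmvk, Mvd, Fdft1, Tm7sf2 and Scap, against 8.66% of genes.

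The comparisons share libraries, so the values of 1 gene across them are not independent. Msmo1 stood at 17.2 ± 8.50, 7.76 ± 1.19 and 27.97 ± 18.8 FPKM (SD, n = 3) in control, model and high dose. Hsd17b7 stood at 4.08 ± 1.10, 0.789 ± 0.241 and 3.74 ± 4.32 FPKM, with the high dose mean carried by high dose 1. Neighbouring group means of Sqle, 9.93 ± 5.89 in control and 17.5 ± 21.9 in high dose, did not differ beyond their spread.

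The order of libraries in the members was set beside that of marker genes. The 4 libraries highest in Th, which makes catecholamines in sympathetic neurons and chromaffin cells, were high dose 1, control 2, control 3 and high dose 2. The same 4 were the highest in 8 members (28.6%), namely Mvk, Mvd, Fdps, Sqle, Cyp51, Msmo1, Dhcr7 and Srebf2, and in 2.38% of genes tested. The sum of the neuron and chromaffin list and most of its genes shared this set. Dbh, Prph and Snap25 of that list did not, and had control 1 among their 4 highest libraries. Th read 5.17, 128 and 32.6 FPKM in control, 0.323, 0.00 and 0.644 in model and 599.8, 15.4 and 1.15 in high dose. Sqle and Th ranked 7 of the 9 libraries alike, the most of any member, while Mvd did so for 0, Mvk for 1, Cyp51 for 2 and Msmo1 and Srebf2 for 3 each. This count was not made over all genes tested.

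All 9 genes of the neuron and chromaffin list reached 1 FPKM in each control library and in high dose 1 and 2, but 1 of 9 did in each model library and 6 of 9 in high dose 3. Their sum was 101 to 1018 FPKM in control, 2.09 to 23.8 in model and 21.4 to 3849 in high dose. Th was listed at 0 in model 2. The sum thus separated model from control in the same direction as Sqle, Msmo1 and Srebf2, and the part of this cell type in those differences was not tested. Schwann cell markers, from glia that synthesise cholesterol for myelin, summed to 65.3 to 254 FPKM in control, 81.2 to 87.4 in model and 81.3 to 635 in high dose, with all or 5 of 6 genes at 1 FPKM in each library. Of 6 steroidogenic markers 4 reached 1 FPKM in control 2, where the sum was 21.3 FPKM; elsewhere at most 1 did and the sum was 0.773 to 2.81 FPKM.

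Insig1, Acat2 and Nsdhl (10.7% of members, against 5.32% of genes tested) were highest in the 4 libraries highest in Adipoq, the adiponectin gene of fat cells: control 3, model 3, model 2 and high dose 1. Adipoq stood at 96.9, 207 and 593 FPKM in control, 128, 477 and 585 in model and 459, 54.6 and 182.5 in high dose. Of the white adipocyte list, Plin1, Fabp4 and the sum had the same 4 highest libraries, but Retn, Cfd and Lep did not. All groups overlapped in the white adipocyte sum, at 3176 to 18739, 4674 to 12917 and 1642 to 10889 FPKM, with 5 or 6 of 6 markers at 1 FPKM. The brown adipocyte list, with 7 of 7 genes present in each library, was highest in control 3, at 14573 FPKM, the library highest in Hmgcs1, Insig1, Acat1 and Acat2. Their part in these values was not tested.

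Soat1 was set beside macrophage markers. Trem2, a lipid receptor of plaque macrophages, read 11.7, 9.90 and 1.54 FPKM in control, 160, 17.6 and 23.3 in model and 3.96, 11.4 and 71.8 in high dose. Model 1, high dose 3, model 2 and model 3 were the 4 highest libraries in both Soat1 and Cd68. Soat1 was the only member with this set (3.57% of members), against 2.19% of genes tested. The macrophage list summed to 185 to 695 FPKM in control, 1413 to 7826 in model and 570 to 3067 in high dose, with 9 or 10 of 10 genes at 1 FPKM, and its part in the Soat1 difference was not tested. Red cell genes summed to 8840 to 15943 FPKM in control, 21374 to 64113 in model and 2693 to 21259 in high dose.

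**Figure D5:**
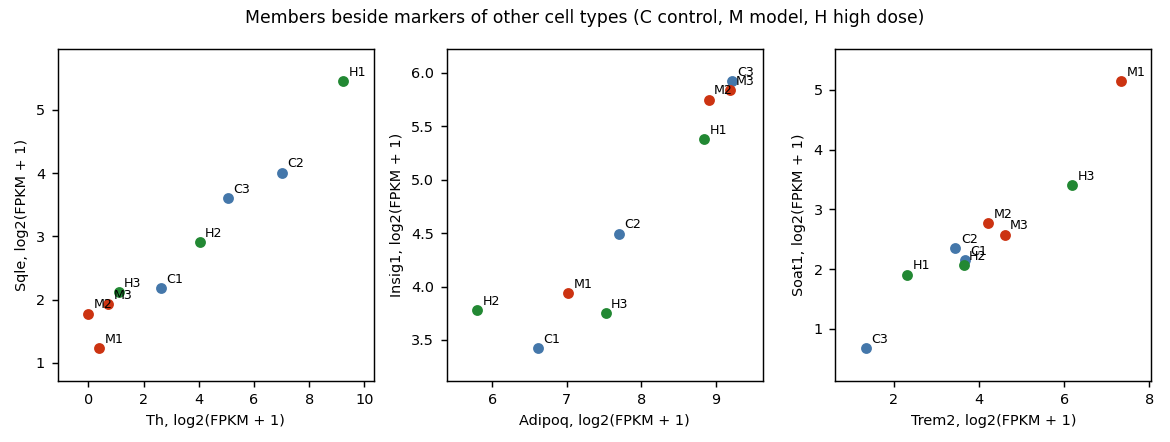
Levels of Sqle, Insig1 and Soat1 (y axes) against the cell type markers Th, Adipoq and Trem2 (x axes), both as log2(FPKM + 1); each point is 1 library, C control, M model, H high dose. High dose 1 is highest in both Sqle and Th, control 3 in both Insig1 and Adipoq, and model 1 in both Soat1 and Trem2.

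Of 37 other genes of sterol metabolism, all were tested and 0 passed in limma in any comparison. Unadjusted p was under 0.05 in 5, 6 and 5 genes for model against control, high dose against model and high dose against control, where 6.37%, 13.4% and 5.44% of all genes had one. By sign 21, 20 and 21 of 37 were higher, against 48.7%, 50.1% and 50.2% of all genes. Libraries did not overlap in 3 higher and 2 lower genes for model against control, where 6.91% and 9.06% of all genes did not. They were 7 and 5 for high dose against model, against 11.7% and 10.9%, and 4 and 2 for high dose against control, against 3.66% and 5.02%.

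Among these, Npc2, Erlin1 and Nus1 were higher in model than in both other groups without overlap, and Coq2, a prenyltransferase of ubiquinone synthesis, was lower. Nus1, a subunit of the enzyme that makes dolichol precursors, read 14.2, 19.4 and 24.7 FPKM in control, 31.5, 29.1 and 29.5 in model and 27.1, 11.7 and 23.7 in high dose. Coq2 read 47.2, 36.3 and 37.2 FPKM in control, 20.3, 29.2 and 30.8 in model and 33.0, 41.2 and 39.5 in high dose. Npc2, which hands cholesterol out of the lysosome, stood at 52.7, 72.2 and 85.7 FPKM in control, 180.5, 148 and 155 in model and 85.0, 44.5 and 91.7 in high dose. Model was above both other groups without overlap, with log2 differences of 1.21 ± 0.319 (SE) against control (limma adjusted p = 0.688) and -1.18 ± 0.319 for high dose against model (adjusted p = 0.248). Erlin1, part of a complex in the endoplasmic reticulum that restrains SREBP activation, read 4.39, 4.32 and 3.74 FPKM in control, 6.15, 8.47 and 6.53 in model and 2.74, 2.98 and 4.31 in high dose. Its log2 differences were 0.64 ± 0.219 and -0.90 ± 0.219 (SE) in the same comparisons, at adjusted p = 0.713 and 0.214, and model was again above both groups in each library.

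The acetyl-CoA supply list holds Acly, Acss2, Aacs and Slc25a1. Acly, the citrate lyase of the cytosol, stood at 24.5, 49.6 and 36.9 FPKM in control, 49.4, 105.1 and 88.2 in model and 208.6, 72.7 and 116.4 in high dose. High dose was above control without overlap, with a log2 difference of 1.74 ± 0.45 (SE) and a limma adjusted p = 0.786. All 4 genes of this list had higher means on the log2 scale in model than in control, against 48.7% of all genes. Their median was 1.11, beside the median of -0.19 of the members. Control and model libraries overlapped in each, with limma adjusted p from 0.749 to 0.776. Slc25a1 stayed at 0.185 to 0.780 FPKM in control, and read 0.550, 1.10 and 1.37 in model and 2.14, 1.52 and 1.78 in high dose. High dose was above both other groups without overlap. No control library reached 1 FPKM, so the gene was tested only through libraries of the groups where it was higher. Acss2 and Aacs, but not Acly or Slc25a1, were highest in the 4 libraries highest in Adipoq, as were 5.32% of genes tested. The white adipocyte genes Retn, Cfd and Lep did not share this set. The part of fat cells in these values was not tested. Por, the electron donor of Cyp51 and Sqle, was higher in high dose than in model without overlap. It read 105.1, 203 and 89.8 FPKM against 49.0, 62.6 and 68.7, with a log2 difference of 1.05 ± 0.377 (SE) and a limma adjusted p = 0.328. Control stood at 49.2, 63.6 and 103 FPKM and overlapped high dose. The highest value was that of high dose 2, the library highest in airway and skeletal muscle markers, and the part of these tissues was not tested.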

How the data were processed

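The authors deposited 1 table of FPKM values for 9 libraries, with genome builds GRCm38.p5 and mm10 per the submitters' processing notes; no label read here names an aligner, counting tool or strand setting. Groups came from the titles. Columns were matched by replicate number and by name: a misspelt Control, AS for the group the labels describe as AS model, and HD as initials of high dose. Positions are from GENCODE M21 (GRCm38). The test was limma (version 3.58.1, under R 4.3.3) applied to log2(FPKM + 1), with 9 libraries in 1 fit, empirical Bayes with a trend, two-sided, Benjamini-Hochberg adjustment over 12895 genes with at least 1 FPKM in at least 3 libraries. The log2(FPKM + 1) scale understates changes of low genes. Deposited FPKM values hold no counts, so no counting interval was computed.

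Log2 differences are given, per comparison, for the 4 members of smallest p in each direction and for all members without overlap; other genes of the pathway are named among those without overlap. The members and lists were chosen with earlier results of these data known. On simulated data for model against control (12895 genes, 200 changed), recovery was 0% at a log2 change of 1, 68% at 2 and 92.5% at 4, with 0, 3 and 7 unchanged genes called. The changed genes were drawn only from those with a control mean above 2 in log2(FPKM + 1), and scatter was independent between genes. How far these rates hold for the deposited libraries was not tested. Apoe, the gene of the ApoE-/- genotype, had a log2 difference of -4.67 ± 0.561 (SE) in model against control. With a limma adjusted p = 0.216 it was not called, although its difference was larger than the 4 of the simulation. Alternatives covered pseudocount, filter, rescaling, weights, the libraries fitted and a replicate block. Those for counts of members without overlap were chosen after seeing the data.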

Additional observations from a re-analysis of the deposited data

How the results depend on the processing

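With array weights (0.379 for control 3 to 5.92 for model 2), limma called 684 of 12895 genes for model against control, among them 1 of 28 members. That member was Hsd17b7 (log2 difference -1.57, limma adjusted p = 0.0434). With the same weights 16 members were higher in that comparison, and 6 genes were called for high dose against model. Without the filter 1 gene was called for high dose against model and 1 for high dose against control, and fitting only the 2 groups compared called 1 for high dose against model. In the 5 libraries with under 100 FPKM of Myh6 (control 3, the 3 model libraries and high dose 1, where a lone library is assumed to vary like the model group), 33 genes were called for high dose against model. The member medians were 1.32 for high dose against model and 0.85 for high dose against control. Signs turned there for Acat2 (-0.67) and Insig1 (-0.74) in model against control, Insig1 (0.20) and Acat1 (0.034) in high dose against model, and Ggps1 (0.31) and Hsd17b7 (1.34) in high dose against control. Counts of members without overlap there say little, since a group holds 1 library: 4 higher and 18 lower for model against control (45.8% and 25.3% of all genes), and 21 and 1 for high dose against model (34.6% and 33.1%). For high dose against control, 1 library against 1, no gene can overlap, and the 24 and 4 (59.2% and 40.8%) are signs only. Median-ratio rescaling gave 5 higher for high dose against model, against 11.3% of genes. The cause of these shifts was not tested.

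Leaving out 1 library at a time, genes called for high dose against model ran from 0 to 45, the latter without high dose 3. Members higher ran from 7 to 15 for model against control, 12 to 22 for high dose against model and 10 to 21 for high dose against control. Members without overlap ran from 1 to 3 higher and 6 to 15 lower for model against control, where the shares of all genes ran from 6.87% to 22% and 8.55% to 24.8%. They ran from 3 to 10 and 0 to 4 for high dose against model (11.4% to 20.2% and 10.9% to 20.1%), and from 1 to 6 and 0 to 4 for high dose against control (3.65% to 14.5% and 5.03% to 13.5%). The log2 difference of Acat2 in model against control ran from -0.12 to 1.19 and that of Insig1 from -0.032 to 1.22, both lowest without control 1. Replicate numbers did not pair the libraries: 3 of 9 same-numbered pairs correlated above 0.1 (r from -0.52 to 0.31) and 1 of 9 libraries correlated best with its own number. With the replicate block, 0 members were called and 10, 20 and 18 were higher, as without it. Depth was read only relative to model 1, and 3 libraries a group limit what can be called.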
